A study of Mus musculus with 3 samples.

Results

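Inmt, Cyp2f2, Stc1, Car3, Ptn, Kcnk3, Vit and Saa3 are 8 genes, of 51912 in the count tables, that were put forward as genes of medullary reticular cells, selected on their measured levels in a cell population of these same libraries, and their rows were found by symbol. They were read in single lymph node stromal cells of C57BL/6 mice with a Cxcl13-Cre/tdTomato transgene, in which the Cxcl13 promoter drives the red reporter TdTomato, so that the sort takes cells of a Cxcl13-expressing kind and not all stroma. Live Podoplanin+ CD31- CD45- TdTomato+ cells were loaded on the Chromium 3' platform, which counts transcript molecules by their barcodes (unique molecular identifiers, UMIs). The group 2-IC (2 libraries) had 2 antigen-immunocomplexes, 7 days and 24 h before analysis, and the group 1-IC (1 library) had 1, 24 h before. All 3 libraries therefore come from immunized mice, and the nodes of several animals were pooled. Gates are compared within libraries, so a p-value here is set against the variation of a gate difference from library to library. It does not measure the spread between mice. The ages of the mice are not given in the sources used here.

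Medullary reticular cells are fibroblasts that form the scaffold of the lymph node medulla, where plasma cells and macrophages reside, and they are known as a source of survival and retention signals for both. Other stromal cells in the same sort line the follicle. Follicular dendritic cells hold antigen through complement receptors such as the product of Cr2, marginal reticular cells below the capsule carry Tnfsf11, the cytokine RANKL, and Fmod encodes fibromodulin, a matrix proteoglycan used here to mark cells toward the T cell zone. The 8 genes have unrelated products. Inmt methylates tryptamine and other small amines, Cyp2f2 is a cytochrome P450 best known from the club cells of the airway, and Car3 is a carbonic anhydrase of fat and muscle. Stc1 (stanniocalcin 1) and Ptn (pleiotrophin) are secreted, the first a calcium- and phosphate-regulating glycoprotein and the second a heparin-binding growth factor. Kcnk3 is a potassium leak channel, Vit (vitrin) a matrix protein with von Willebrand factor type A domains and Saa3 an acute-phase serum amyloid.

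The 8 genes lie on 6 chromosomes of GRCm38, in GENCODE M21 coordinates, and all are protein coding. Inmt spans chr6:55170626-55175043 on the minus strand and Ptn chr6:36714929-36810220 on the same strand, Cyp2f2 spans chr7:27119909-27133660 on the plus strand and Saa3 chr7:46711998-46715700 on the minus strand. Stc1 spans chr14:69029238-69041804, Car3 chr3:14863512-14872523, Kcnk3 chr5:30588170-30625271 and Vit chr17:78508064-78627408, all on the plus strand. Cyp2f2, Stc1, Kcnk3 and Vit each overlap another annotated gene on the opposite strand.

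To show what lies before the start sites of a set of genes found in the same cells, the sequence is given for the 4 genes that matched an entry in the RefSeq promoter table of GRCm38.p6 (Inmt, Cyp2f2, Ptn and Saa3). Each line gives the 150 bases from 210 to 61 bases before the RefSeq start, 5′ to 3′ on the gene's own strand, and capitals mark a match to TATAAA or CCAAT. The windows are chr6:55175051-55175200 (minus strand), chr7:27119745-27119894 (plus strand), chr6:36810240-36810389 (minus strand) and chr7:46715737-46715886 (minus strand), in the order of the lines.
Inmt: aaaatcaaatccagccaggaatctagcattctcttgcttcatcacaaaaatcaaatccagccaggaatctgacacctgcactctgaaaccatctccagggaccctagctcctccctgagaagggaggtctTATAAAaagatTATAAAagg
Cyp2f2: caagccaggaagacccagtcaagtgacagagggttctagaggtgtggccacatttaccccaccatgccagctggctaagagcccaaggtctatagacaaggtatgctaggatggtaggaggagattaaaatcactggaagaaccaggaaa
Ptn: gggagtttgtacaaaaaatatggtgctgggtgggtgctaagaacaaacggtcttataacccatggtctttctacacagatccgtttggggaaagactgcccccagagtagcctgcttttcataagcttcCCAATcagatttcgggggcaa
Saa3: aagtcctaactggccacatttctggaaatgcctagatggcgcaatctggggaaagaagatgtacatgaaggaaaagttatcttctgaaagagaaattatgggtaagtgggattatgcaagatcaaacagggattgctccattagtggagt

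Of the 6 motifs searched on both strands, TATAAA occurred 2 times in the Inmt window and CCAAT once in the Ptn window, while the Cyp2f2 and Saa3 windows held none. TATAAA was in 6.72% and CCAAT in 22.7% of all 32851 windows of that length. The other motifs (TGANTCA in 4.13%, TTNNGNAAT in 6.4%, the NF-kB motif in 2.71% and CACGTG in 3.42% of windows) were in none of the 4, and no motif was shared by the 4 windows.

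After removal of barcodes with fewer than 200 genes, more than 10% mitochondrial UMIs or any count of 13 genes of blood, endothelial and epithelial contaminants, 2243 of 5486 barcodes remained: 1526 in 2-IC replicate 1, 391 in 2-IC replicate 2 and 326 in 1-IC replicate 1. The files held 20607903, 12788101 and 3766526 UMIs, and the retained cells had a median of 4700.5, 14732 and 5979 UMIs, so 2-IC replicate 2 stood apart by its depth. The 2-IC libraries also shared 76 barcodes, of which the shallower copy held a median of 1.9% of the UMIs of the deeper one. Leaving these copies out moved no count over all genes, members or pairs by over 1.5 times. Cells were sorted by UMIs in the order Cr2, Tnfsf11, Fmod, each cell going to the first gate gene of which it held at least 1 UMI. This gave Cr2 gates of 145, 35 and 50 cells, Tnfsf11 gates of 405, 147 and 93, and Fmod gates of 179, 59 and 19 in the library order above. The cells outside the gates numbered 797, 150 and 164. In the Tnfsf11 gate a mean of 9.05% of cells held Madcam1 and 20.6% held Ch25h, so the gate does not stand for marginal reticular cells alone.

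The 8 genes did not single out the cells outside the gates. All but Saa3 were below the outside level in the Fmod gate in each library and most were low in the Cr2 gate, but the Tnfsf11 gate carried most of them at about the same level, and Stc1 at a higher one. Levels are given as CPM, the UMIs of a gene scaled to 1e6 UMIs of the summed cells, in the order 2-IC replicate 1, 2-IC replicate 2, 1-IC replicate 1. Since the genes were chosen for their pattern in these cells, the levels are a description and carry no test.

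Inmt, the small-amine methyltransferase, was at 567, 731 and 408 CPM outside the gates and at 525, 672 and 314 CPM in the Tnfsf11 gate. It was at 392, 323 and 199 CPM in the Fmod gate and at 181, 429 and 18.7 CPM in the Cr2 gate. The outside cells were thus the highest of the 4 in every library, by 0.20 ± 0.15 (SD, n = 3 libraries) log2 units over the Tnfsf11 gate and 0.92 ± 0.34 over the Fmod gate. With these contaminants kept the order against the Tnfsf11 gate turned, with 364, 472 and 232 CPM outside and 444, 528 and 306 CPM in that gate. Against the Cr2 gate the log2 difference ran from 0.77 to 4.45, a spread wider than its mean of 2.29. The highest difference, in the 1-IC library, rests on Inmt in 2% of its 50 Cr2-gated cells. In the Cr2 gate of 2-IC replicate 2 the Inmt UMIs came from 7 of 35 cells with 25.6 UMIs per positive cell.

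Cyp2f2, the P450, was at 160, 203 and 90.1 CPM outside the gates against 104, 135 and 36.2 CPM in the Tnfsf11 gate and 52.9, 47.3 and 26.5 CPM in the Fmod gate. It stood above the Tnfsf11 gate by 0.84 ± 0.41 and above the Fmod gate by 1.82 ± 0.26 log2 units, and in neither case did a library go the other way. In the Cr2 gate it was at 52, 218 and 18.7 CPM, so that 2-IC replicate 2 was slightly higher there than outside. Cyp2f2 stayed above the Tnfsf11 gate in all 3 libraries with gates of at least 2 UMIs, with thinned cells and with no removal of contaminants, whereas Inmt did so under none of these.

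The secreted factors were as high or higher in the Tnfsf11 gate. Stc1 was at 279, 359 and 186 CPM outside the gates and at 432, 471 and 268 CPM in the Tnfsf11 gate, a difference of -0.51 ± 0.12 log2 units with the same sign in each library. In the Fmod gate Stc1 was at 92.6, 24.1 and 79.5 CPM and in the Cr2 gate at 121, 173 and 6.23 CPM. Ptn was at 1289, 807 and 1452 CPM outside the gates and at 1364, 935 and 1414 CPM in the Tnfsf11 gate, a difference of -0.08 ± 0.12 log2 units, within the spread between libraries. In the Fmod gate Ptn was at 532, 252 and 557 CPM (the outside cells were 1.45 ± 0.21 log2 units higher), and in the Cr2 gate it was at 276, 444 and 56 CPM.

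Kcnk3, the leak channel, was at 24.4, 25.8 and 24 CPM outside the gates, the steadiest of the 8 across libraries. It was at 41, 41 and 18.1 CPM in the Tnfsf11 gate, above the outside cells in both 2-IC libraries and below them in the 1-IC library. In the Fmod gate it was at 4.67, 4.3 and 6.63 CPM, the last of these resting on 1 UMI, and in the Cr2 gate at 11.8, 12 and 9.34 CPM. Vit, the matrix protein, was at 65.8, 44.4 and 43.2 CPM outside the gates and at 55.7, 46.9 and 29.3 CPM in the Tnfsf11 gate, which did not differ beyond the spread (0.24 ± 0.32 log2 units). It was lower in the Fmod gate, at 23.4, 11.2 and 13.3 CPM, and in the Cr2 gate, at 23.7, 16.8 and 3.11 CPM. The last of these came from 2% of 50 cells.

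Car3 was sparse and Saa3 patchy. Car3, the carbonic anhydrase, was at 20.7, 23.8 and 26.4 CPM outside the gates, at 4.76, 15 and 11.2 CPM in the Tnfsf11 gate and at 0 in the Fmod gate of all 3 libraries. A count of 0 there allows up to 2.34, 2.58 and 19.9 CPM, so the absence in the 19 Fmod-gated cells of the 1-IC library carries little weight. In the Cr2 gate Car3 was at 21.3, 0 and 0 CPM, so that 2-IC replicate 1 was slightly higher there than outside. All Car3 UMIs of the retained cells came from 35, 13 and 3 cells, with 14.6%, 41.3% and 63.3% of them in a single cell. Saa3, the acute-phase protein, was at 314, 28.3 and 223 CPM outside the gates and at 354, 17 and 165 CPM in the Tnfsf11 gate. It was at 206, 37 and 166 CPM in the Fmod gate and at 286, 0 and 3.11 CPM in the Cr2 gate, and no gate was highest in all 3 libraries.

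**Figure D1:**
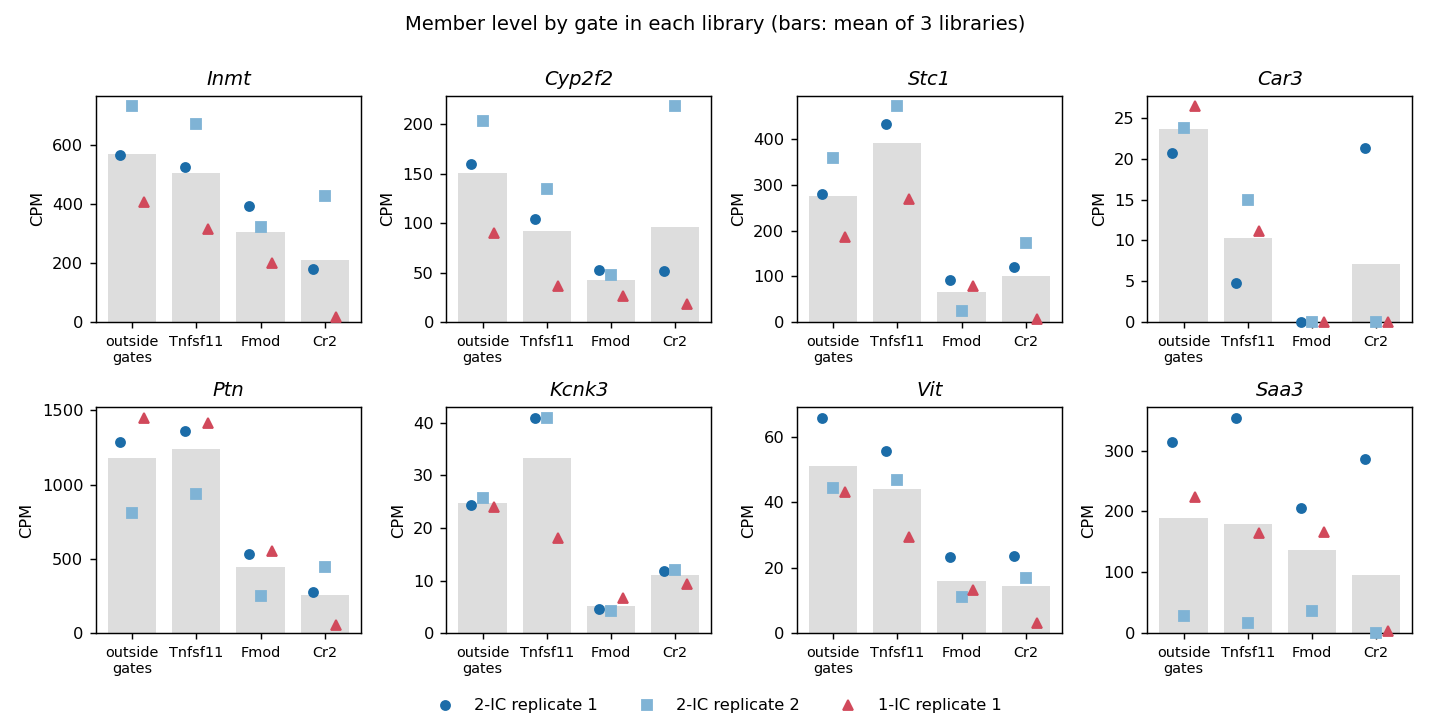
Level of each of the 8 genes (CPM of summed cells, linear axes starting at 0) in the cells outside the gates and in the Tnfsf11, Fmod and Cr2 gates. Points are the 3 libraries and bars their mean. Inmt and Cyp2f2 are highest outside the gates on average, Stc1 is higher in the Tnfsf11 gate in each library, and the Saa3 points of 2-IC replicate 2 lie near 0.

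Counted over the 8 genes, 6 were higher outside than in the Cr2 gate in every library (not Cyp2f2 or Car3), where 26.1% of the 7584 genes with at least 10 CPM in each library did the same. For the Tnfsf11 gate the count was 3 of 8 (Inmt, Cyp2f2 and Car3) against 11.3% of all genes, and Stc1 was lower in every library, as were 32.1% of all genes. For the Fmod gate 7 of 8 (all but Saa3) were higher outside, against 17.6% of all genes. These comparisons used the pattern the genes were chosen for, so nothing is read from the counts beyond the pattern itself. With gates of at least 2 UMIs, or with each cell thinned to 2000 UMIs and gated again, only Cyp2f2 was above the Tnfsf11 gate in every library.

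Only after thinning was the share of cells with Inmt higher outside than in the Tnfsf11 gate in every library. Inmt was found in 58.2%, 60.7% and 49.4% of cells outside the gates and in 63.2%, 75.5% and 50.5% of Tnfsf11-gated cells, which were deeper (median 6111, 16914 and 7194 UMIs against 3878, 9942 and 5025). With each cell thinned to 2000 UMIs the shares were 50.4%, 47.5% and 41.5% outside and 39.3%, 46.6% and 23.1% in the Tnfsf11 gate. In the Fmod gate the thinned shares of Inmt were 35.2%, 33.3% and 7.14%, and in the Cr2 gate 9.64%, 8% and 0%. Stc1 kept its higher share in the Tnfsf11 gate after thinning, with 45.1%, 51.7% and 28.2% against 30.4%, 30.5% and 21.8% outside. The thinned shares of Ptn were 69.1%, 54.2% and 68.6% outside and 70.9%, 67.2% and 66.7% in the Tnfsf11 gate, against 41.9%, 22.2% and 42.9% in the Fmod gate. Vit, at 11.3%, 8.9% and 6.91% outside and 6.8%, 17.2% and 10.3% in the Tnfsf11 gate, had no order that held in all libraries.

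B cell barcodes, which should lack these genes, were read as a background. Whether it came from free RNA or from mixed barcodes was not tested. Among 320, 73 and 165 barcodes with Cd79a and Cd79b UMIs and no Pdpn or Col1a2 (median 3447.5, 5845 and 3141 UMIs), 8.12%, 4.11% and 0.606% held Inmt and 7.81%, 11% and 1.82% held Ptn. The other 6 genes were in at most 2.81% of B cell barcodes. In the 1-IC library all 12 Inmt UMIs came from 1 barcode. Leaving out barcodes with Pdpn or Col1a2 can make these shares lower. The shares outside the gates were far above the B cell shares for all genes but Car3 and Saa3. Car3 was in 1.22% to 2.89% of outside cells and Saa3 in 4.67% to 12.7%, against at most 1.37% and 2.19% of B cell barcodes. In 2-IC replicate 1 the Cr2 gate held Inmt at 181 CPM and B cell barcodes at 24.9 CPM. Among cells with at least 2 Cr2 UMIs, Inmt was at 27.3 CPM (15 UMIs) in 2-IC replicate 1 and had no UMI in the 39 cells of the 1-IC library. It stayed at 301 CPM in 2-IC replicate 2, from 4 of 27 cells.

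The 8 genes were also detected in the same cells. Since they were selected on a cell population of these same libraries, this follows in part from the choice and is given as a description. Of the 28 pairs, 26 (all but Inmt with Saa3 and Car3 with Saa3) were found together in more cells than their single shares predict in every library. Yet 81.7% of all gene pairs did the same, since a deep cell holds more of every gene. With each cell thinned to 2000 UMIs, 20 of 28 pairs stayed above expectation in every library against 11.4% of all 28754736 pairs, many of which are of rare genes. The median ratio of observed to expected cells was 1.46, 1.53 and 1.67 over the 28 pairs and 0.997, 0.966 and 0.924 over all pairs. The 8 pairs that did not hold were the 7 pairs of Saa3 and the pair of Car3 with Kcnk3.

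The enzymes and secreted factors made the best counted pairs after thinning. Inmt and Cyp2f2 were found together in 145, 41 and 15 cells where 83.4, 23.4 and 8.12 were expected, ratios of 1.74, 1.75 and 1.85. Inmt with Stc1 gave ratios of 1.32, 1.48 and 1.82 and Stc1 with Ptn 1.29, 1.56 and 1.61. For Ptn, which was present in most cells, the ratio has little room to rise: with Inmt it was 1.19, 1.38 and 1.43. Kcnk3 with Vit gave the higher ratios of 2.52, 2.1 and 5.65, but from 14, 3 and 3 cells. Pairs with Car3 rested on at most 15 cells in any library, too few to order them. Saa3 had ratios to Inmt of 1.17, 0.769 and 0.725 from 75, 2 and 4 cells, the last 2 too few to read. In 2-IC replicate 1 its ratios to the other members ran from 0.892 with Vit to 2.54 with Car3, the latter from 5 cells.

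**Figure D2:**
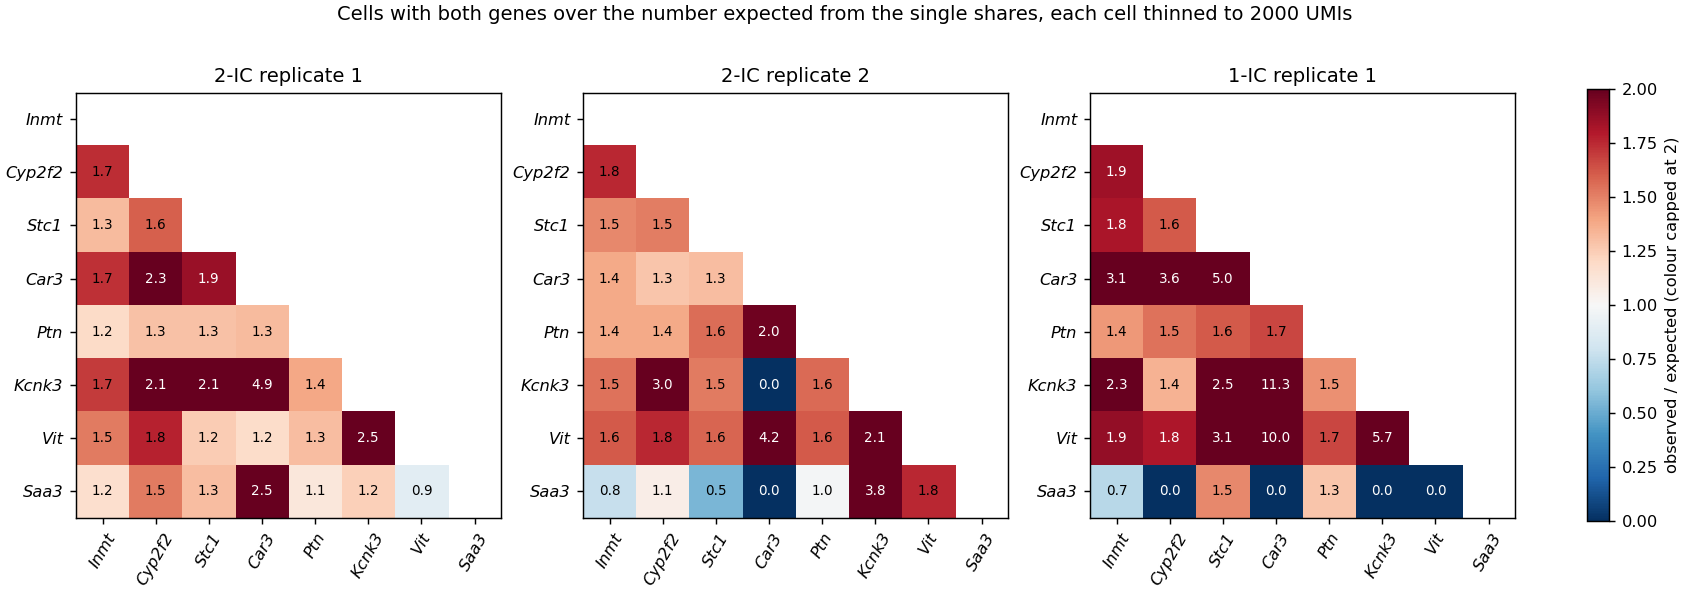
Cells that held both genes of a pair divided by the number expected from the 2 single shares, for the 28 pairs in each library, with every cell thinned to 2000 UMIs. The colour is white at 1 and capped at 2. All 3 panels are above 1 for the pairs among Inmt, Cyp2f2, Stc1, Ptn, Kcnk3 and Vit, while the bottom row, Saa3, is mixed and its zeros rest on fewer than 2 expected cells.

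Few cells held the whole set. Of the retained cells 14.9%, 15.6% and 32.2% held none of the 8 genes, 1 cell in each 2-IC library held all of them, and no cell of the 1-IC library did. After thinning, 20.3%, 30.9% and 33.2% held none and at most 6 genes were seen in one cell.

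Beside the genes that define neighbouring stroma, thinned Inmt detection avoided Cr2 (ratios of 0.215, 0.185 and 0) and Madcam1, the addressin of marginal and follicular stroma (0.0354, 0 and 0). Its ratio to Tnfsf11 was 0.867, 1.06 and 0.63, on either side of 1, whereas that of Stc1 to Tnfsf11 was 1.46, 1.66 and 1.37. With Nr4a1, an orphan nuclear receptor that served the study as its medullary marker, Inmt had ratios of 1.18, 1.27 and 1.44, Cyp2f2 1.19, 1.52 and 2.1, Stc1 1.14, 1.32 and 1.21, and Saa3 0.908, 0.44 and 0.514. Nr4a1 is also an immediate early gene, and its summed list is given with the dissociation response. The name medullary thus finds a positive but modest overlap with Nr4a1 for Inmt, Cyp2f2, Stc1, Ptn, Kcnk3 and Vit and none for Saa3, and the same genes reach well into the Tnfsf11-gated cells.

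Clustering without the 8 genes and the gate genes put 7 of the 8 at their highest mean level in 1 of 10 clusters, where 9.06% of 7584 genes had theirs. The 8 genes were selected on a cell population of these libraries, so this is a description. This cluster, cluster 4, of 257 cells (216, 12 and 29 per library) was led by Lsamp, Cyp2e1, Id4, Hamp2, Fgf10 and Sparcl1. The libraries were clustered together without correction, and the clusters split in part by library. Most cells of 2-IC replicate 2 lay in cluster 6 (170 cells) and cluster 7 (96 cells, all of that library). Cluster 7, with only 1 library, was left out of the search for the highest level. In cluster 4 Inmt was at 1171, 1689 and 911 CPM and found in 89.4%, 100% and 93.1% of cells, and Stc1 was at 856, 955 and 845 CPM. Ptn was at 2208, 1824 and 2786 CPM, Cyp2f2 at 386, 387 and 129 CPM and Kcnk3 at 116, 94.7 and 66.9 CPM. Vit was at 127, 63.2 and 87.5 CPM, and Car3 at 58.6, 55.3 and 154 CPM. Cluster 4 held Tnfsf11 at a mean of 140 CPM, in 46.3%, 41.7% and 44.8% of its cells. It held little Cr2 (2.3 CPM) or Fmod (5.17 CPM), so it straddled the gates. Its mean Nr4a1 level of 506 CPM was below the 609 CPM of the cluster led by Cxcl2, Apod and Cd34, where Inmt was at 718, 363 and 603 CPM.

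Saa3 did not set cluster 4 apart, at 710, 15.8 and 366 CPM there and at 708 and 24.1 CPM in the 2-IC libraries of cluster 6 (27 and 170 cells), so that its mean was 364 CPM in one and 366 CPM in the other. The cluster with the most Cr2 (1039 CPM, 243 cells) held almost none of the set, with Inmt at 11.5, 7.38 and 0 CPM and mean levels of 1.64 CPM for Cyp2f2, 16.5 CPM for Stc1 and 76.5 CPM for Ptn. In the cluster with the most Tnfsf11 (296 CPM, 386 cells) mean levels were 186 CPM for Inmt, 17.6 for Cyp2f2 and 6.14 for Kcnk3. Vit was at 12.1 and Car3 at 0.326 CPM there, while Stc1, Ptn and Saa3 were at 253, 942 and 197 CPM. Inmt was within the range of 186 to 662 CPM in 7 further clusters and was not confined to one. A cluster led by immunoglobulin genes (321 cells, median 1459 UMIs) held Inmt at a mean of 484 CPM. With other clustering settings 6 or 7 of the 8 genes peaked together.

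**Figure D3:**
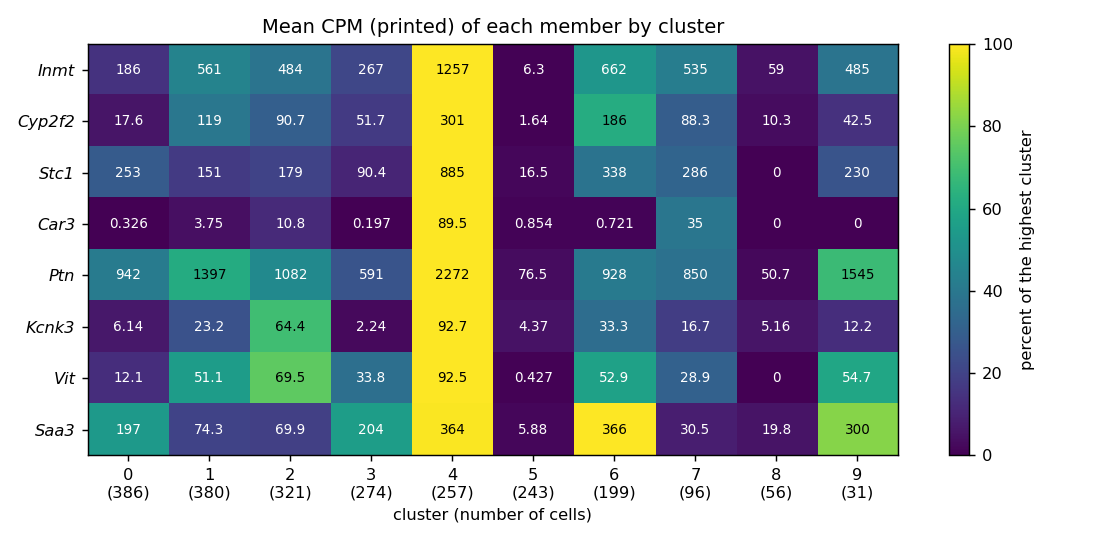
Mean level of each gene (numbers, in CPM) in the 10 clusters over the libraries with at least 5 cells there, with colour as a percentage of the gene's highest cluster and cell numbers in brackets. The column of cluster 4 is brightest for 7 of the 8 genes, and the column of cluster 5, where Cr2 is high, is near 0 for all of them.

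As a description of which genes followed the set across cells, over the retained cells of each library and with the lowest r of the 3 libraries given, the mean of the 8 genes was most like Dcn (decorin, r = 0.49), Lepr (the leptin receptor, 0.45), Aebp1 (0.45), Selenop (0.43), Srpx (0.43), Ano1 (0.41), Rarres2 (0.40), Gsn (0.39), Cxcl12 (0.39) and Cpxm1 (0.39), of 5209 genes ranked. Of these 10, 8 were also in the top 10 after thinning, and all points share the depth of their cell. Inmt alone was most like Dcn (0.48), Gsn (0.42) and Cxcl12 (0.38), Ptn like Lepr (0.48), Aebp1 (0.42) and Selenop (0.41), and Stc1 like Enpp2 (0.35), Slc5a3 (0.32) and Ano1 (0.31). For Cyp2f2, Vit, Kcnk3, Saa3 and Car3 the best r was at most 0.25, too weak in such sparse counts to be read.

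Between libraries the set did not move as one. Over all retained cells Inmt was at 487, 599 and 297 CPM, with 95% Poisson intervals of 472 to 502, 579 to 619 and 274 to 322 that cover counting error only. Cyp2f2 was at 114, 142 and 54.9 CPM and Stc1 at 285, 327 and 179 CPM, so these 3 genes were lowest in the 1-IC library. Ptn was lowest in 2-IC replicate 2 instead (1094, 724 and 1150 CPM), and Vit ran 51.7, 36.7 and 29.7 CPM. Like Vit, Kcnk3 (25.5, 27.2 and 18.3 CPM) was lowest in the 1-IC library. Its log2 level was higher by 0.48 (interval -0.03 to 1.03) in 2-IC replicate 1. In 2-IC replicate 2 it was higher by 0.57 (0.04 to 1.13). Car3 (12.3, 13.2 and 14.8 CPM) moved little. Saa3 was at 308, 22.9 and 163 CPM, so the 2-IC libraries differed by 3.75 log2 units (95% interval 3.49 to 4.01). That gap between libraries of the same group was larger than any difference of the 8 genes between libraries of different groups. The top cell held 7.56%, 26.2% and 19.7% of the Saa3 UMIs.

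Where at least 1 of the libraries compared reached 50 CPM, Saa3 was the 1 of 6 members at least 2-fold apart between the 2-IC libraries, where 5.51% of 3395 genes were. Between 2-IC replicate 1 and the 1-IC library it was Cyp2f2, 1 of 6 against 2.35% of 3109 genes (log2 difference 1.06, interval 0.78 to 1.36). Between 2-IC replicate 2 and the 1-IC library Inmt, Cyp2f2 and Saa3 were, 3 of 5 against 12.3% of 3440 genes, with Inmt 1.01 log2 units higher in the 2-IC library (0.88 to 1.14) and Saa3 at -2.83. The group 1-IC has 1 library and thus no spread of its own, so the groups were not tested. The share of cells in each gate and the depth differed between the libraries as well. Fewer cells of a type and less RNA per cell cannot be told apart in such sums over all cells, nor in those outside the gates, where Inmt was at 567, 731 and 408 CPM.

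**Figure D4:**
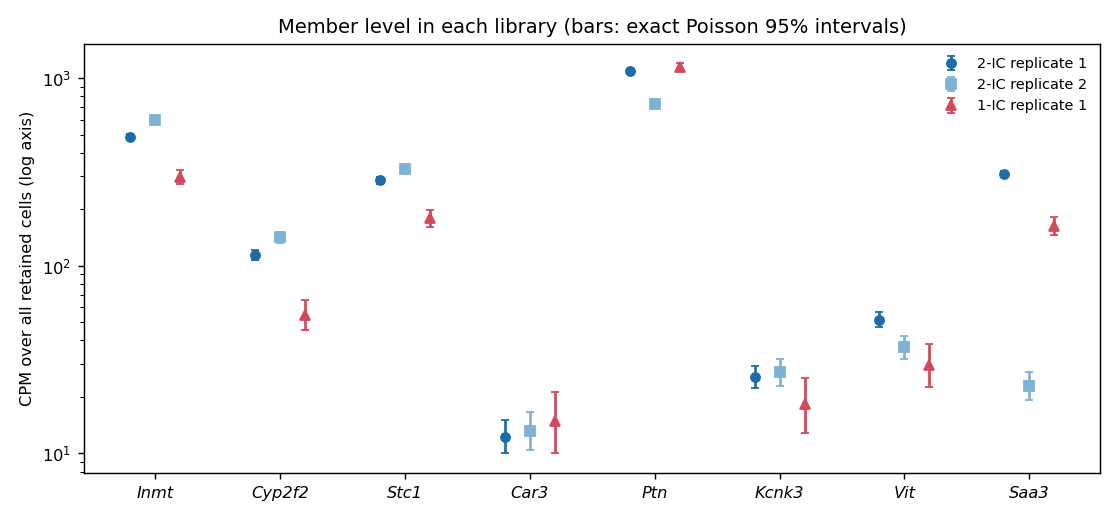
Level of each gene over all retained cells of each library, in CPM on a log axis, with 95% Poisson intervals as error bars that cover counting error only. Saa3 of 2-IC replicate 2, at 22.9 CPM, lies far below the other libraries, and Inmt, Cyp2f2, Stc1, Kcnk3 and Vit are lowest in 1-IC replicate 1.

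To find what else marks the Inmt-positive cells, the cells outside the gates with an Inmt UMI (464, 91 and 81) were set against the mean of the 3 gates within libraries, in a model across all genes that left the 8 genes and the gate genes untested. Of 10032 genes, 722 (7.2%) were higher and 424 (4.23%) lower in the Inmt-positive cells at an adjusted p under 0.05 by edgeR's quasi-likelihood test, with n = 3 libraries. The median log2 difference over all genes was 0.03. Without scaling factors for composition the calls split evenly, 536 higher and 532 lower. In the same fit, and with no test, the log2 differences were from 1.56 to 1.66 for Vit, Cyp2f2, Inmt, Ptn, Stc1 and Kcnk3 and 0.87 for Saa3. That of Inmt is set by the gate, since each Inmt-positive cell holds an Inmt UMI by definition. Stc1 was at 367 CPM in the Inmt-positive cells against 390 in the Tnfsf11 gate, with 99.9 and 65.4 in the Cr2 and Fmod gates. Kcnk3 was at 35.3 CPM against 33.4 in the Tnfsf11 gate, with 11.1 and 5.2 in the Cr2 and Fmod gates. Car3, with no UMI in the Fmod gate, was at 35.9 CPM in the Inmt-positive cells and at 7.1 and 10.3 CPM in the Cr2 and Tnfsf11 gates. Because the mean is over 3 gates, a gene can pass through its low level in 1 of them. The 4 levels are therefore given for many of the genes named, in the order Inmt-positive, Cr2, Tnfsf11 and Fmod gate.

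The 10 genes with the largest rises included Fgf10, Cpe and Lsamp. Fgf10, a fibroblast growth factor for epithelia, was 2.05 ± 0.23 (SE) log2 units higher (edgeR adjusted p = 1.05e-06), at 46.3, 9.55, 26.9 and 4.63 CPM. Cpe, the carboxypeptidase that trims neuropeptides, was 2.45 higher (edgeR adjusted p = 4.04e-06), at 52.1, 6.76, 14.5 and 5.61 CPM. Its level in the Inmt-positive cells varied widely between libraries (SD 49.6 CPM). Lsamp, an adhesion protein, was 2.24 higher (edgeR adjusted p = 4.66e-06), at 29.7, 6.78, 16.8 and 2.16 CPM. In mean level, Fgf10, Cpe and Lsamp were above each of the 3 gates. Kiss1r, Pate1, Pcolce2, Lin7a, Fgf18 and Penk also rose, to 9.72 to 22.2 CPM in the Inmt-positive cells, levels too low for a firm fold. They were at 0.799 to 2.78 CPM in the Cr2 gate, 2.2 to 16 CPM in the Tnfsf11 gate and 0.546 to 9.33 CPM in the Fmod gate. The nearest gate was close for Pcolce2 (22.2 against 16 CPM in the Tnfsf11 gate) and Fgf18 (9.72 against 6.54 CPM in the Fmod gate). The call of Penk was lost without the library term and without the 1-IC library.

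The 5 genes with the largest falls had no UMI in the Inmt-positive cells of any library and were highest in the Cr2 gate. Syt1, a synaptic vesicle calcium sensor, was at 247 CPM in the Cr2 gate (edgeR adjusted p = 0.000926), Aplp1 at 70.2, Gm11837 at 24.4, Pcbd1 at 21.6 and Flt4 at 15.9 CPM. No fold is given against a level of 0. The calls of Syt1, Pcbd1 and Flt4 were lost without the 1-IC library and those of Aplp1, Pcbd1 and Flt4 without 2-IC replicate 2. That of Aplp1 was lost without 2-IC replicate 1. Without the library term the calls of Syt1, Aplp1, Pcbd1 and Flt4 were lost.

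Lists of related genes were read around each of the 8 genes. These lists and those further below were chosen with earlier results of these data known, so their counts are a description. Beside them, 7.2% of all 10032 genes tested were higher and 4.23% lower. Around Cyp2f2, of 23 genes of xenobiotic and retinoid oxidation and conjugation, 19 were tested and 9 rose, with none lower and a median log2 difference of 0.65 against 0.03 over all genes. The count was 4 without 2-IC replicate 2, 5 without each of the other libraries and 3 by DESeq2. Cyp1b1, a P450 of oestrogen and retinoid metabolism, was 0.95 higher (edgeR adjusted p = 1.93e-05), at 198, 76.8, 167 and 97.5 CPM. Cyp2e1 (28.3, 5.13, 35.1 and 5.19 CPM) and the aldehyde oxidase Aox3 (16.3, 8.84, 27.2 and 6 CPM) were called but highest in the Tnfsf11 gate, and the glutathione transferase Gstt1 (225, 58.5, 194 and 263 CPM) in the Fmod gate, and these 3 calls were lost by DESeq2. Aldh2, the mitochondrial aldehyde dehydrogenase, was 0.69 higher (edgeR adjusted p = 0.000138), at 338, 132, 313 and 272 CPM. Por, the reductase that feeds electrons to P450s, was 0.73 higher (edgeR adjusted p = 0.000931), at 64.3, 25, 57 and 40.9 CPM. Of the 13 methylation genes around Inmt, 8 were tested, 2 rose and 1 fell, or 1 and 0 without either 2-IC library. Nnmt, which methylates nicotinamide, was 0.83 higher (edgeR adjusted p = 0.00045), at 100, 25.9, 69.5 and 93.7 CPM, so that the Fmod gate was close to the Inmt-positive cells.

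Around Saa3, 10 of 13 tested acute-phase and NF-kB genes (17 listed) rose and 1 fell, with a median of 0.75, but only 3 rose without 2-IC replicate 1, the library with the most Saa3. C3, the central complement component, was 0.68 higher (edgeR adjusted p = 0.000627), at 9490, 3280, 8240 and 9500 CPM, and thus no higher than in the Fmod gate. Serpina3g, an intracellular protease inhibitor, was 1.44 log2 units lower, written as -1.44 (edgeR adjusted p = 1.93e-05), at 28.8, 65.8, 99.8 and 114 CPM.

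Around Ptn, 4 of 10 tested relatives and receptors rose and 2 fell (13 listed), with only 1 rise left without 2-IC replicate 1. Lrp1, a lipoprotein receptor that also binds pleiotrophin, was 0.97 higher (edgeR adjusted p = 2.4e-05), at 399, 98.5, 279 and 347 CPM. Itgav, an integrin chain, was lower at -0.83 (edgeR adjusted p = 0.000658), at 40.1, 158, 47.5 and 58.3 CPM. The receptor genes Ptprz1 and Alk did not reach the tested set, and Mdk, the relative of pleiotrophin, did not pass the test (-0.30).

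Around Stc1, 2 of 10 tested genes of the stanniocalcin, PAPP-A and hypoxia list rose (14 listed) and 3 fell, with 1 fall left without 2-IC replicate 1. The rises were Igfbp4, an insulin-like growth factor binding protein cut by PAPP-A (0.86, edgeR adjusted p = 8.39e-05, at 1370, 415, 986 and 1330 CPM), and Vegfa (0.73, edgeR adjusted p = 1.93e-05, at 750, 281, 710 and 547 CPM). The falls were Hif1a, the hypoxia factor itself (-0.64, edgeR adjusted p = 0.00217), Ndrg1 (-0.46) and Stc2, the paralogue of Stc1, at 1.96, 12.1, 3.27 and 11.5 CPM.

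Around Kcnk3, 3 of 4 tested potassium channel genes rose (14 listed), namely Kcne4, Kcnj8 and Abcc9, but none was called without 2-IC replicate 2 and 1 without either other library. Both Kcnj8 (195, 61.9, 265 and 145 CPM) and Abcc9 (485, 246, 576 and 390 CPM) were highest in the Tnfsf11 gate. Kcne4 (67.6, 13.7, 66.4 and 74.8 CPM) was highest in the Fmod gate. Around Car3, 1 of 4 tested genes rose (11 listed), the bicarbonate cotransporter Slc4a4 (1.54, edgeR adjusted p = 0.00824), and no carbonic anhydrase did. Without either 2-IC library Slc4a4 was not among the genes tested, and no gene of the list was called. Around Vit, 5 of 9 tested matrix genes with related domains rose (12 listed) and 1 fell, with 3 rises and no fall left without 2-IC replicate 1. Among them was Col6a3 (1.00, edgeR adjusted p = 2.05e-05, at 337, 50.7, 299 and 339 CPM). The fall was Coch, a follicular dendritic cell gene, at 214 CPM in the Cr2 gate and 7.97 CPM in the Inmt-positive cells, whose call was lost without 2-IC replicate 1.

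Of the factors that sustain plasma cells and macrophages, 5 of 10 tested rose (11 listed) and 2 fell, with 2 rises left without 2-IC replicate 1 and by DESeq2. Cxcl12, the chemokine that holds plasma cells, was 0.88 higher (edgeR adjusted p = 7.83e-05), at 8570, 2810, 6010 and 7490 CPM. Lepr was 1.13 higher (edgeR adjusted p = 0.00014), at 868, 202, 770 and 488 CPM, and Il6 1.28 higher (edgeR adjusted p = 0.000946), at 23.9, 3.19, 16.8 and 23.9 CPM. The call of Lepr was lost by DESeq2 and that of Il6 without 2-IC replicate 1. Ccl2 (319, 50.6, 297 and 507 CPM) and Tnfsf13b (206, 116, 148 and 285 CPM) were also called higher but were highest in the Fmod gate. Il6 was level between that gate and the Inmt-positive cells. Bst1, an ectoenzyme of stroma, fell by 1.43 on the log2 scale (edgeR adjusted p = 2.1e-08), at 104, 450, 250 and 246 CPM, and Vcam1 fell by 0.46 (edgeR adjusted p = 0.00601).

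The immediate early and dissociation list moved with the Inmt-positive cells. Of 20 genes, all tested, 16 rose and none fell, with a median of 0.82, and 14 to 18 were called when 1 library was left out. Nr4a1 was 1.23 ± 0.13 (SE) log2 units higher (edgeR adjusted p = 6.33e-07), at 552, 169, 321 and 307 CPM. Ier3 was 1.33 higher (edgeR adjusted p = 3.23e-06) and Fos 0.86 higher (edgeR adjusted p = 1.14e-06). The summed list was at 41878, 35880 and 42005 CPM in the Inmt-positive cells and at 22400, 19888 and 14956 CPM in the Cr2 gate. It was at 29062, 26799 and 24275 CPM in the Tnfsf11 gate and 37109, 28236 and 32773 CPM in the Fmod gate. Its part in the other differences was not tested.

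**Figure D5:**
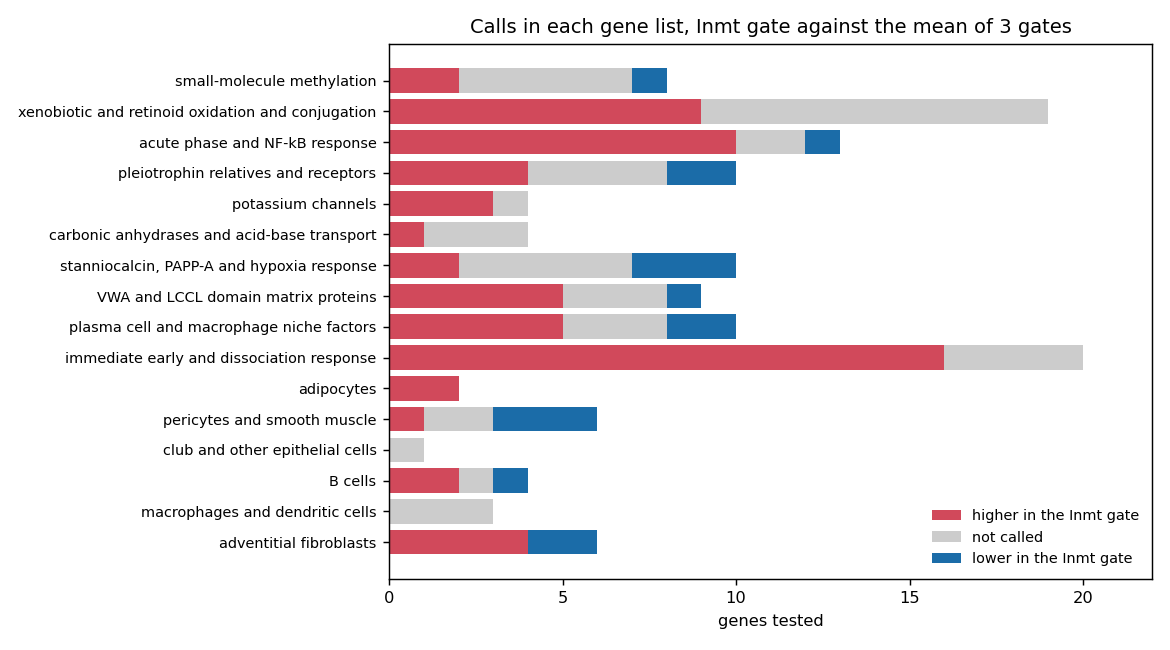
Number of tested genes of each list that were called higher (red), called lower (blue) or not called (grey) in the Inmt-positive cells outside the gates (the Inmt gate) against the mean of the 3 gates, by edgeR at an adjusted p under 0.05. The immediate early list has the longest red bar, 16 of 20, and the stanniocalcin and hypoxia list holds 2 higher and 3 lower genes.

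Markers of epithelial and endothelial cells were at or near 0 outside the gates, in part because cells with a count of Krt18, Lyve1, Cldn5 or Egfl7 had been removed. The adipocyte and macrophage lists were not near 0. Cyp2f2 is known from club cells, whose markers Scgb1a1, Scgb3a1, Scgb3a2, Krt8, Krt19 and Sftpc were at 0 outside the gates in all 3 libraries, and the 8 epithelial genes summed to 2.01, 1.29 and 3.6 CPM there. Car3 is known from adipocytes, and of the 11 adipocyte genes Adipoq, Lep, Cidec and Pparg were at 0 outside the gates. The list still summed to 424, 588 and 321 CPM, and the 2 tested genes, Lpl and Plin1, both rose, with neither called without 2-IC replicate 1 or by DESeq2 and 1 without either other library. Neither was highest in the Inmt-positive cells. Lpl, at 457, 142, 343 and 776 CPM, was highest in the Fmod gate, and Plin1, at 18.3, 4.76, 22.4 and 6.5 CPM, in the Tnfsf11 gate. The 8 endothelial genes, 3 of them among the genes filtered on, summed to at most 6.89 CPM there and none reached the test. The 10 macrophage and dendritic cell genes summed to 175, 63.7 and 352 CPM outside the gates, with none of 3 tested called in either direction.

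Adventitial fibroblast genes rose in part, with 4 of 6 tested higher (10 listed) and 2 lower, the latter 0 without either 2-IC library and by DESeq2. Ly6a was 1.57 higher (edgeR adjusted p = 6.09e-08), at 271, 39.2, 116 and 148 CPM, and Cd34 1.74 higher (edgeR adjusted p = 2.24e-05), at 39.5, 9.09, 7.71 and 14.5 CPM. The list summed to 917, 934 and 907 CPM outside the gates and to 1223, 1124 and 1073 CPM in the Fmod gate, and its defining genes Pi16 and Dpp4 were at 0 outside the gates in 2-IC replicate 2 and the 1-IC library. Of the pericyte and smooth muscle genes 1 of 6 tested rose (9 listed) and 3 fell, or 0 and 1 without 2-IC replicate 1, and Myh11 fell (-1.40, edgeR adjusted p = 7.97e-06), at 35.5, 247, 105 and 50.3 CPM. Of the B cell genes 2 of 4 tested rose (8 listed) and 1 fell, with 1 rise left without shared barcodes, without 2-IC replicate 2 or without the 1-IC library, and no fall when any library was left out. The rises were the immunoglobulin genes Ighm (0.94, edgeR adjusted p = 0.00199) and Igkc (0.57, edgeR adjusted p = 0.0427), and the list summed to 1794, 1197 and 1498 CPM outside the gates. The part of these cells in the levels of the 8 genes was not tested.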

How the data were processed

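Libraries were made with the Chromium 3' v3 kit, and the deposited files hold UMI counts per gene and barcode, unnormalized, as the authors made them with Cell Ranger (version 3 in the methods, 5.0.0 in the file headers) on GRCm38 with Ensembl 89 annotation. 3 libraries were analysed. The grouping follows the titles, since the short descriptions of the 2-IC libraries name different times. Barcodes were kept with at least 200 genes, at most 10% mitochondrial UMIs and no count of 13 contaminant genes. Scrublet (scanpy 1.11.5) called 8, 18 and 16 retained cells doublets, which were kept and left out as an alternative. Counts were summed per library and gate. Member levels, shares and pairs are descriptions, and shares for single libraries carry counting error only. The 12 sums were tested with edgeR 4.0.16 (quasi-likelihood, TMM, library as a term, Benjamini-Hochberg adjusted p under 0.05, 6 residual degrees of freedom), checked on simulated data. Alternatives were DESeq2 1.42.0, no TMM, no low-count filter, no library term, other gates, no contaminant filter, 2000 UMIs per cell, doublets left out and each library left out. Seurat 5.3.0 clustered cells (2000 variable genes, 10 components, resolution 0.8). Named genes were the 8 members, gate genes, the 10 highest and 5 lowest called genes moving one way in all libraries, each list's 3 most abundant genes and up to 4 called with the largest folds, and the most alike genes. Por, Ndrg1, Mdk, Ccl2 and Tnfsf13b were named after their values were seen. The members and lists were chosen with earlier results of these data known. Promoters of Stc1, Car3, Kcnk3 and Vit were not analysed here. 1 of the named genes is not reported here.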

Additional observations from a re-analysis of the deposited data

Results flagged for a closer look

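Ptn and Kcnk3 were the genes of the set whose difference between the cells outside the gates and the Tnfsf11 gate had one sign in both 2-IC libraries and the other in the 1-IC library. For Ptn the log2 difference was 0.04 in 1-IC replicate 1 and -0.08 and -0.21 in 2-IC replicates 1 and 2. For Kcnk3 it was 0.41 in 1-IC replicate 1 and -0.75 and -0.67 in the 2-IC libraries, with 37 Kcnk3 UMIs in all retained cells of the 1-IC library. Whether the groups differ was not tested, since the group 1-IC has 1 library. The Ptn difference of 0.04 is smaller than the gap between the 2-IC libraries.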

How the results depend on the processing

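Without the library term in the edgeR fit, 67 genes were higher and 73 lower in the Inmt-positive cells, in place of 722 and 424, and 7 of 60 called list genes kept their call. With cells thinned to 2000 UMIs only 3351 genes were tested, in place of 10032, and 361 were higher and 149 lower. DESeq2 called 414 higher and 309 lower, and 40 of the 60 list genes. Leaving out 1 library, with 8085 to 10286 genes tested, gave 280 to 455 higher and 156 to 321 lower. Both were lowest without 2-IC replicate 1, where 31 of the 60 list genes kept their call. Without TMM the split was 536 and 532. Of the 15 genes with the largest folds, all kept their call by DESeq2 and 6 without the library term (3 not tested). With thinned cells 1 kept it (13 not tested), with gates of 2 UMIs 5 (7 not tested) and without 2-IC replicate 1 5 (9 not tested). The other alternatives (no low-count filter, gates of 2 UMIs, comparison gates without Inmt, no contaminant filter, doublets or shared barcodes left out) stayed within 1.5 times. With no contaminant filter Igkc reversed to -1.18, and the cause was not tested.

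The number of the 8 genes above the Tnfsf11 gate in every library went from 3 to 1 with gates of at least 2 UMIs and to 1 with thinned cells, Cyp2f2 in both, and was 3 to 4 when 1 library was left out. The number below it in every library, 1 (Stc1), was 4 with no contaminant filter (Inmt, Stc1, Ptn and Kcnk3) and 3 without the 1-IC library (Stc1, Ptn and Kcnk3). The count of members 2-fold apart between 2-IC replicate 1 and the 1-IC library went from 1 to 0 with no contaminant filter and to 0 with doublets left out. The counts against the Cr2 gate, against the Fmod gate and of pairs stayed within 1.5 times under the alternatives run. Of the 32 mean levels, 2 moved by more than the spread between libraries with gates of 2 UMIs, 6 with no contaminant filter, 7 with thinned cells and 0 with doublets, shared barcodes or 1 library left out. Leaving out shared barcodes, leaving out a library from the pair counts and leaving out doublets between libraries were chosen after seeing the data. No paired analysis was possible because the labels give no replicate numbers that pair libraries across the groups, and gates were compared within libraries through the library term. Depth limits Car3, Kcnk3 and the Fmod gate of the 1-IC library most.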
